A study of Macaca mulatta with 22 samples.

Results

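The genes described here build, cross-link, fill and bind the hyaluronan matrix that forms around the oocyte's cumulus cells before ovulation. They are the hyaluronan synthases HAS1 and HAS2, the cross-linking proteins TNFAIP6 and PTX3, the proteoglycan VCAN (versican) and the receptor CD44. Every probe set with 1 of these names as its only gene symbol in the array's annotation was taken, whatever its values. This gave 12 probe sets for the 6 genes, out of 24956 probe sets with a single symbol for 14132 genes. HAS1, PTX3 and CD44 had 1 probe set each, HAS2 and TNFAIP6 had 2, and VCAN had 5. A gene is given by its brightest probe set, judged by the mean over the 22 arrays, and the sets of a gene are numbered from brightest to dimmest.

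Hyaluronan is a long sugar chain that synthases in the cell membrane spin out into the space between cells. After the surge of luteinizing hormone, cumulus cells make it in large amounts, and the cumulus swells and loosens, which is known as cumulus expansion. TNFAIP6 transfers protein chains onto hyaluronan, PTX3 helps tie those chains together, versican binds hyaluronan at the follicle's inner wall and in the cumulus, and CD44 anchors hyaluronan at the cell surface.

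The 22 arrays each measured RNA of 1 follicle of a rhesus macaque (Macaca mulatta). All females in a controlled cycle received the GnRH antagonist Acyline together with 30 IU each of recombinant human FSH and recombinant human LH once serum estradiol had reached 100 to 120 pg/ml. The 6 follicles of the 0 h group were taken without the ovulatory stimulus. The other follicles followed 1000 IU of recombinant human chorionic gonadotropin (hCG), which acts on the luteinizing hormone receptor, with 4 follicles at 12 h, 4 at 24 h, 4 at 36 h that were still unruptured and 4 at 36 h that had ruptured (ovulated). The labels do not say of each array that its follicle came from a separate animal, so the p-values below rest on the spread from follicle to follicle. Titles call the samples ovulatory follicles, while the descriptions, apart from 0 h replicate 1, which names the preovulatory follicle, speak of a developing corpus luteum. The RNA came from the whole follicle, in which cumulus, mural granulosa, theca and other cells are mixed, so fewer cells of a type and less RNA per cell cannot be told apart.

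Values are log2 intensities, on which a difference of 1 is a 2-fold change, and array medians lay between 4.71 and 4.74. A gene or probe set was called where limma's 2-sided moderated test gave a Benjamini-Hochberg adjusted p under 0.05 over 52766 probe sets. Markers of the follicle's own cells were measured in every group. The summed intensity of 7 granulosa markers ran from 946 to 14311 over the arrays, and that of 6 theca markers from 8245 to 14813. CYP19A1 (aromatase, of granulosa cells) had a mean of 11.34 ± 0.85 at 0 h (SD, n = 6), and STAR, which carries cholesterol into mitochondria, had 12.41 ± 0.24.

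HAS1 and HAS2 both had their highest mean in ruptured follicles and the next highest at 12 h, while the lowest mean was at 24 h for HAS1 and at 0 h for HAS2. HAS1 is one of the membrane enzymes that make hyaluronan. Its 6 values at 0 h had a lowest of 2.46, a median of 3.53 and a highest of 3.80. At 12 h its 4 follicles read 5.75, 4.72, 5.61 and 5.15. All of these lay above every 0 h follicle. At 24 h HAS1 read 3.12, 3.96, 2.22 and 1.80, and no follicle reached the lowest value at 12 h. The unruptured follicles at 36 h read 3.37, 2.05, 4.50 and 4.73. Their range touched the values at 0 h, 12 h and 24 h. The ruptured follicles read 6.70, 8.24, 9.68 and 5.08, all above the unruptured ones, although the lowest of them lay within the range at 12 h. Their SD of 1.98 was the widest of HAS1's 5 groups.

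HAS2, the synthase most often tied to cumulus expansion, had a lowest value of 1.61, a median of 2.90 and a highest of 3.47 at 0 h. At 12 h it read 4.54, 4.94, 4.32 and 6.75, again above every 0 h follicle. At 24 h it read 0.34, 4.35, 3.15 and 4.50, so that a single follicle stood far below the other three. In unruptured follicles HAS2 read 4.36, 4.01, 3.00 and 3.58. In ruptured follicles it read 6.51, 6.68, 6.57 and 5.02. All 4 ruptured follicles were above all 4 unruptured ones, and replicate 8, the low one, was also the ruptured follicle with the lowest HAS1. The second HAS2 probe set moved with the first over the 22 arrays (Pearson r = 0.90, a description over arrays that share both sets) and had group means of 2.38, 5.16, 2.82, 4.07 and 6.33, in the order of the groups above.

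TNFAIP6 makes TSG-6, the enzyme that moves heavy chains from inter-alpha-inhibitor onto hyaluronan. Its 0 h values had a lowest of 3.56, a median of 4.60 and a highest of 5.32. At 12 h TNFAIP6 read 7.87, 7.10, 7.32 and 9.84. Each of these exceeded every 0 h value, and replicate 4 was also the highest 12 h follicle for HAS2. At 24 h it read 5.54, 6.56, 4.48 and 7.31, and at 36 h in unruptured follicles 4.86, 7.20, 5.94 and 5.48. Both of these groups overlapped with both the 12 h and the 0 h values. In ruptured follicles TNFAIP6 read 8.89, 8.44, 9.72 and 9.50, above all unruptured and all 24 h follicles. Its second probe set gave the same order of group means (0 h 4.13, 12 h 8.36, 24 h 5.92, unruptured 5.50 and ruptured 9.34, with r = 0.98 to the first).

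PTX3, a long pentraxin that TSG-6-modified hyaluronan needs to hold together, had the highest F statistic over the 5 groups, 59.2. Its 0 h values had a lowest of 4.76, a median of 5.65 and a highest of 6.20. At 12 h PTX3 read 10.61, 10.47, 9.62 and 10.60. At 24 h it read 7.46, 9.01, 7.91 and 9.35, below every 12 h follicle and above every 0 h follicle. In unruptured follicles PTX3 read 6.67, 7.53, 7.10 and 6.95. The highest of these lay just within the 24 h range, and the lowest was still above the 0 h range. In ruptured follicles it read 11.59, 9.95, 10.06 and 11.18, a range that covered the 12 h values of 3 follicles.

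VCAN and CD44 stayed within narrow ranges, VCAN at a high intensity and CD44 close to the array medians. VCAN is the large chondroitin sulfate proteoglycan of the expanded matrix. On its brightest probe set the 0 h values had a lowest of 10.80, a median of 11.14 and a highest of 11.29. The 12 h follicles read 11.20, 11.71, 10.94 and 11.47, the 24 h follicles 10.32, 11.42, 11.06 and 10.71, and the unruptured ones 10.76, 11.61, 10.91 and 11.17. These 4 groups overlapped. The ruptured follicles read 11.40, 11.53, 11.39 and 11.29 and had the smallest SD of VCAN's groups, 0.10. The lowest of them, 11.292, was just above the highest 0 h value, 11.290. CD44, the main hyaluronan receptor of the cell surface, had a lowest of 4.69, a median of 5.11 and a highest of 5.20 at 0 h. It read 5.26, 5.17, 4.70 and 5.50 at 12 h, 4.68, 5.07, 5.07 and 5.10 at 24 h, and 4.82, 4.39, 5.37 and 5.37 in unruptured follicles. In ruptured follicles CD44 read 5.50, 5.07, 5.12 and 6.09, and every group overlapped with every other. The mean of its only probe set over all arrays was 5.11, beside 11.16 for VCAN and array medians of 4.71 to 4.74. Detection was not tested, so the flat CD44 signal does not show that CD44 expression was steady.

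**Figure D1:**
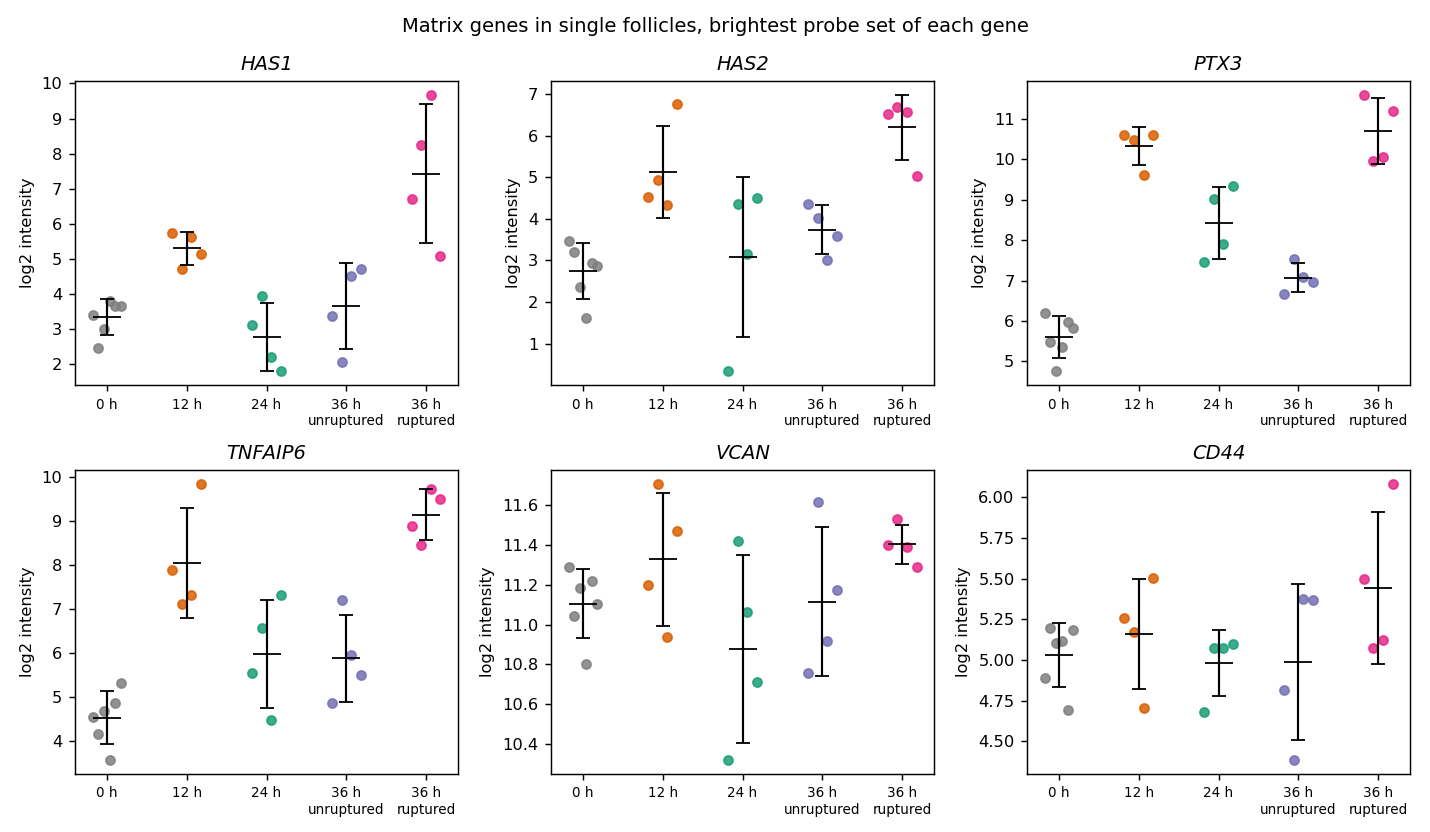
Log2 intensity of the brightest probe set of HAS1, HAS2, PTX3, TNFAIP6, VCAN and CD44 (y axis, with its own range in each panel and not starting at 0) in the 5 groups of follicles (x axis). Each point is 1 follicle and bars give the mean and SD. HAS1, HAS2, PTX3 and TNFAIP6 have their 12 h points above all 0 h points, while VCAN and CD44 overlap between these groups. The share of all probe sets without overlap was not counted.

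Over the 5 groups, 4 of the 6 genes differed by limma's moderated F test (Benjamini-Hochberg adjusted), where 20.1% of all probe sets were called. Here and below, the share over all probe sets includes 27449 sets without a symbol and dimmer sets of a gene. It is not a like measure for genes given by their brightest set, and a like share was not counted. The adjusted p was 5.69e-07 for PTX3, 0.000114 for TNFAIP6, 0.000767 for HAS1 and 0.00472 for HAS2. It was 0.361 for VCAN and 0.500 for CD44. Leaving out any single array gave 4 called genes each time.

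At 12 h after hCG, 3 of the 6 genes rose against 0 h and none fell, where 4.28% of all probe sets were called higher and 5.05% lower. PTX3 rose by 4.73 ± 0.40 (SE), which is 26.5-fold, with a limma adjusted p of 1.71e-06. TNFAIP6 rose by 3.52 ± 0.58, or 11.5-fold (adjusted p = 0.000829), and its second probe set by 4.23 ± 0.64. HAS2 rose by 2.39 ± 0.67 (adjusted p = 0.0295), and its second set by 2.78 ± 0.79 (adjusted p = 0.0311). Its 0 h mean of 2.74 lay below the array medians, where the size of a change depends on the handling of low intensities and detection was not tested. With 16 added to each intensity before the logarithm, HAS2 changed by 1.21 (adjusted p = 0.00996) and its second set by 1.33. The HAS2 call was lost without 0 h replicate 3 (adjusted p = 0.0579), 0 h replicate 4 (0.0644), 12 h replicate 2 (0.0584) or 12 h replicate 4 (0.123). For the second HAS2 set, leaving out 0 h replicate 1, 3 or 6, or else 12 h replicate 2 or 4, ended the call, with an adjusted p of up to 0.125.

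HAS1 was higher at 12 h by 1.97 ± 0.69 and did not pass (adjusted p = 0.0831). Its groups did not overlap, but the share of all probe sets without overlap was not counted. With 16 added the difference was 1.09. In a limma fit of only these 2 groups it passed with an adjusted p of 0.00935. VCAN differed by 0.22 ± 0.20, with a 95% confidence interval from -0.20 to 0.65, and CD44 by 0.13 ± 0.22, with an interval from -0.34 to 0.60. The median change of the 6 genes was 2.18, beside 0.00 over all probe sets tested.

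Markers of myeloid cells also moved in this comparison. Of 10 measured macrophage and monocyte markers, 3 rose at 12 h and none fell, with a median change of 0.80. TYROBP, a signalling adaptor of myeloid cells, rose by 1.66 ± 0.39, AIF1 by 1.34 ± 0.31 and CD14, a co-receptor for bacterial lipopolysaccharide, by 1.03 ± 0.24. The summed intensity of the list was 1451 to 2566 at 0 h and 1952 to 4941 at 12 h, and detection of its genes was not tested. Of 9 measured neutrophil markers 1 rose, FCN1, by 2.33 ± 0.40 (1.30 with 16 added), with list sums of 106 to 550 at 0 h and 239 to 374 at 12 h. The granulosa list moved the other way, with 2 of 7 markers lower at 12 h (INHBB and HSD17B1) and sums of 5909 to 14311 at 0 h and 2280 to 8676 at 12 h. INHBB, with means of 4.33 at 0 h and 0.50 at 12 h, lay below the array medians in both groups. It changed by -3.84, or by -1.15 with 16 added. HSD17B1 changed by -1.96, or by -1.78 with 16 added. The part of these lists in the members' changes was not tested.

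From 12 h to 24 h, HAS1 and PTX3 fell and no member rose, where 3.67% of all probe sets were called higher and 3.2% lower. HAS1 fell by 2.53 (SE 0.75, limma adjusted p = 0.0495). This call was lost without any 1 of the 8 arrays except 24 h replicate 2, with adjusted p from 0.0607 (without 12 h replicate 2) to 0.126 (without 24 h replicate 4). It was also lost with 16 added to each intensity before the logarithm, where the change was -1.25 (adjusted p = 0.149), in a fit of only these 2 groups (0.0696) and with the arrays' 3' minus 5' difference, a measure of RNA quality, as a covariate (change -2.51, adjusted p = 0.116). PTX3 fell by 1.89 (SE 0.43, adjusted p = 0.0117), and without 24 h replicate 1 the change was -1.57 (adjusted p = 0.0501). In a fit of only these 2 groups the adjusted p of PTX3 was 0.106. Of the 7 measured granulosa markers, 2 were lower at 24 h than at 12 h and none was higher, with a median change of -0.64. CYP19A1 changed by -3.16 ± 0.66 (limma adjusted p = 0.00637) and INHBA by -2.38 ± 0.46 (adjusted p = 0.00374). Both calls held without any single array. The list's sums were 2280 to 8676 at 12 h and 1267 to 2309 at 24 h. The part of this list in the members' changes was not tested.

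TNFAIP6 differed by -2.06 ± 0.64 between 24 h and 12 h and narrowly missed the threshold (limma adjusted p = 0.0595), while its second probe set passed with -2.43 ± 0.70 (adjusted p = 0.0428). Leaving out replicate 1 or 4 at 12 h, or replicate 1 or 3 at 24 h, ended the call of the second set, with an adjusted p of up to 0.147. The brightest set passed without 12 h replicate 2 (adjusted p = 0.0476) or 24 h replicate 4 (0.0278). It also passed with 16 added (0.0282), after a filter on dim probe sets (0.0223), with the 3' minus 5' covariate (0.0394) and as the mean of both TNFAIP6 sets (0.0459). HAS2 differed by -2.05 ± 0.74 (adjusted p = 0.109) and with 16 added by -0.94, VCAN by -0.45 ± 0.22 with an interval from -0.91 to 0.01, and CD44 by -0.18 ± 0.24 with an interval from -0.69 to 0.33.

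From 24 h to the unruptured follicles at 36 h, no member was called in either direction, where 0% of all probe sets were called higher and 0.00379% lower. Over all probe sets, 3298 had an unadjusted p under 0.05. PTX3 differed by -1.37 ± 0.43, with an interval from -2.28 to -0.46, an unadjusted p of 0.00534 and a limma adjusted p of 0.656. TNFAIP6 differed by -0.10 ± 0.64, HAS1 by 0.89 ± 0.75 and HAS2 by 0.65 ± 0.74. The HAS2 value turned to -0.26 without 24 h replicate 1, the follicle at 0.34.

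Ruptured follicles differed from unruptured follicles of the same hour in 4 of the 6 genes, all higher, where 4.83% of all probe sets were called higher and 4.99% lower. Rises and falls here and below compare groups of different follicles, and no follicle was followed over time. The words at rupture stand for ruptured against unruptured follicles at 36 h. HAS1 rose by 3.76 ± 0.75 (limma adjusted p = 0.00351). PTX3 rose by 3.63 ± 0.43, or 12.4-fold (adjusted p = 5.94e-05), and TNFAIP6 by 3.27 ± 0.64, or 9.63-fold (0.00293), with 3.83 ± 0.70 on its second set. HAS2 rose by 2.46 ± 0.74 (adjusted p = 0.0397), while its second set was higher by 2.26 ± 0.86 and did not pass (0.113). With 16 added, HAS1 changed by 2.71 (adjusted p = 0.00108) and HAS2 by 1.61 (0.00220), since their unruptured means lay below the array medians. The median change of the 6 genes was 2.86, beside -0.03 over all probe sets.

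The HAS2 call between ruptured and unruptured follicles was the least firm of these. It was lost without any 1 of the 8 arrays except ruptured replicate 8, with a limma adjusted p from 0.0552 (without unruptured replicate 1) to 0.104 (without unruptured replicate 3). It was also lost with the 3' minus 5' covariate (0.0833) and as the mean of both HAS2 sets (0.0529). HAS1 lost its call in a fit of only these 2 groups (adjusted p = 0.106). VCAN differed by 0.29 ± 0.22, with an interval from -0.18 to 0.75, and CD44 by 0.46 ± 0.24, with an interval from -0.05 to 0.97.

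The summed intensity of the granulosa markers was 946 to 3534 in unruptured and 4707 to 8058 in ruptured follicles, so that the groups did not overlap. Of the 7 measured markers 1 was called and rose, INHBA, the inhibin and activin beta A subunit, by 3.20 ± 0.46 (limma adjusted p = 0.000245), and the list's median change was 0.83. Without INHBA, a sum added after the values were seen, the list gave 623 to 3138 in unruptured and 2352 to 3326 in ruptured follicles, and the groups overlapped. Detection of its genes was not tested. The part of the granulosa list in the members' difference was not tested. The macrophage list had no called gene here, with sums of 1798 to 3062 in unruptured and 1598 to 3283 in ruptured follicles. The oocyte itself leaves at rupture with its cumulus, and the sums of 9 oocyte markers were 712 to 1176 in unruptured and 534 to 1077 in ruptured follicles, ranges that overlapped. Of these markers 1 was called, ZP4, which was higher by 0.59 ± 0.15, a call lost without ruptured replicate 5 (adjusted p = 0.0511).

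**Figure D2:**
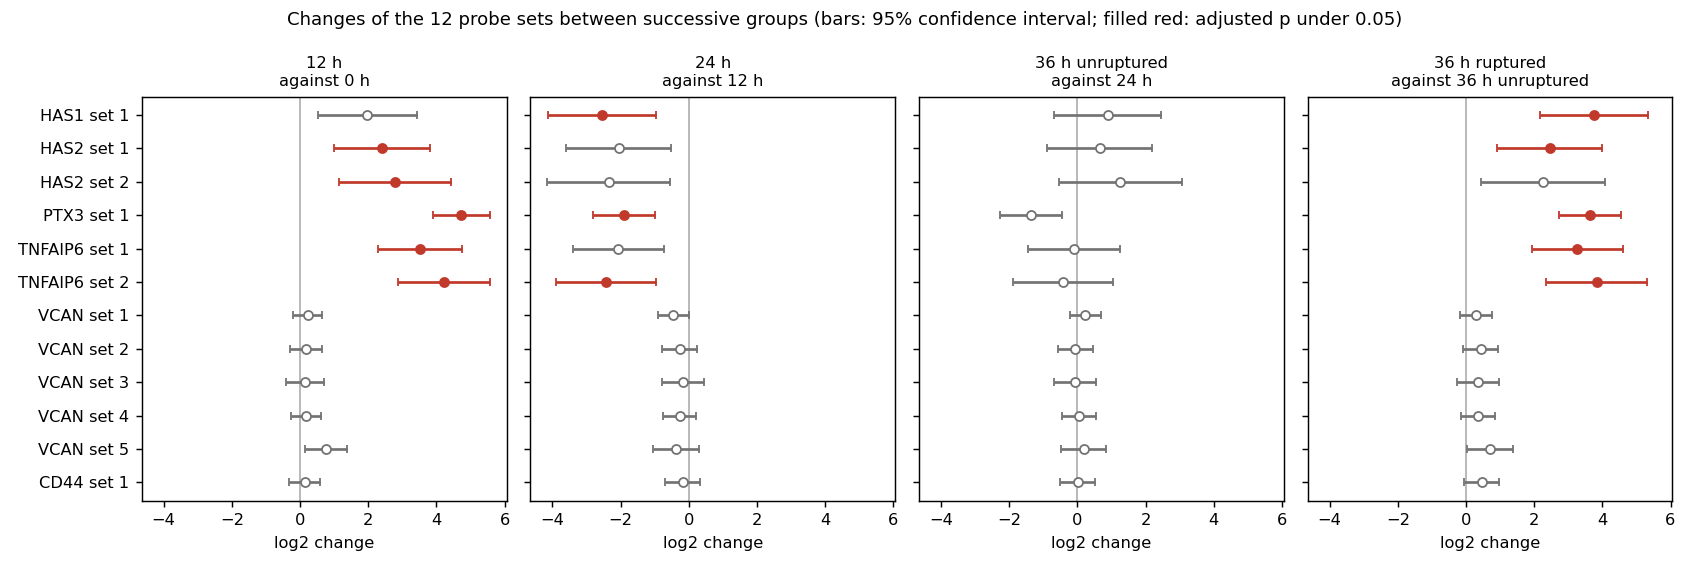
Log2 change of the 12 probe sets (rows) between successive groups (1 panel per comparison), with points for the fitted change and bars for its 95% confidence interval. Filled red points passed an adjusted p under 0.05; the sets of HAS2, PTX3 and TNFAIP6 are red at 12 h against 0 h, none is red from 24 h to unruptured 36 h, and all 5 VCAN intervals against the previous group stay within -1.04 and 1.37.

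The remaining pairs of groups place the levels in order. PTX3 was still above 0 h at 24 h, by 2.84 ± 0.40 (limma adjusted p = 0.000487). It was the only called member there, where 1.66% of all probe sets were called higher and 1.69% lower. Unruptured follicles also held 1 called member against 0 h, PTX3, higher by 1.47 ± 0.40 (limma adjusted p = 0.0387), where 2.08% were called higher and 2.65% lower. This last call was lost without 0 h replicate 2, 3, 4 or 6 or without any single unruptured follicle, with an adjusted p from 0.0543 to 0.116, and with the 3' minus 5' covariate (0.0521). At 24 h the changes of the other members against the same 0 h follicles were -0.56 ± 0.69 for HAS1, 0.34 ± 0.67 for HAS2 and 1.46 ± 0.58 for TNFAIP6 (adjusted p = 0.212). Tests of whether PTX3 differed from them there were picked after these values were seen and are not given as results.

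Against 0 h, ruptured follicles had 4 of the 6 genes higher and none lower, where 7.01% of all probe sets were called higher and 8.78% lower. PTX3 was higher by 5.10 ± 0.40, or 34.3-fold, TNFAIP6 by 4.62 ± 0.58, HAS1 by 4.09 ± 0.69 and HAS2 by 3.45 ± 0.67 (2.92 and 1.98 with 16 added). The limma adjusted p was 1.78e-07, 2.70e-05, 0.000412 and 0.00141 in that order. Each of these calls held without any single array.

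Against 12 h, unruptured follicles had 2 members lower and none higher, where 4.97% of all probe sets were called higher and 4.85% lower. PTX3 fell by 3.26 (SE 0.43, limma adjusted p = 0.000143) and TNFAIP6 fell by 2.16 (SE 0.64, adjusted p = 0.0369). The TNFAIP6 call ended without replicate 1 or 4 of the 12 h group or unruptured replicate 1, 3 or 4, with an adjusted p from 0.0695 to 0.136, and in a fit of only these 2 groups (0.157).

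Between 12 h and ruptured follicles no member was called, where 0.942% of all probe sets were called higher and 0.66% lower by limma, and 7714 had an unadjusted p under 0.05. HAS1 differed by 2.11 ± 0.75 (adjusted p = 0.177), and without ruptured replicate 8 it passed, at 2.89 (adjusted p = 0.0350). PTX3 differed by 0.37 ± 0.43, with an interval from -0.54 to 1.28, and TNFAIP6 by 1.10 ± 0.64, with an interval from -0.24 to 2.44. Between 24 h and ruptured follicles, 4 members were higher, where 4.4% were called higher and 4.9% lower. HAS1 was higher by 4.65 ± 0.75, TNFAIP6 by 3.17 ± 0.64, HAS2 by 3.11 ± 0.74 and PTX3 by 2.27 ± 0.43. With 16 added the HAS1 difference was 3.08 and that of HAS2 1.70. TNFAIP6 alone passed in a fit of only these 2 groups.

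The order of PTX3's group means was therefore ruptured (10.70 ± 0.82, SD, n = 4), 12 h (10.33 ± 0.48), 24 h (8.43 ± 0.89), unruptured (7.06 ± 0.36) and 0 h (5.60 ± 0.52, n = 6). Of the neighbours in this order, 12 h and 24 h differed, as did unruptured and 0 h follicles. Both calls were lost in some of the runs given above. The differences between ruptured and 12 h and between 24 h and unruptured follicles did not pass after adjustment. The interval of the latter, given above, did not include 0. TNFAIP6 had the same order, from 9.14 ± 0.58 in ruptured follicles to 4.51 ± 0.60 at 0 h, but no pair of neighbours passed on its brightest set. HAS2 ran from ruptured (6.20 ± 0.78) over 12 h (5.14 ± 1.11), unruptured (3.74 ± 0.59) and 24 h (3.09 ± 1.93) to 0 h (2.74 ± 0.67), and no pair of neighbours passed. HAS1 ran from ruptured (7.42 ± 1.98) over 12 h (5.31 ± 0.47), unruptured (3.66 ± 1.23) and 0 h (3.33 ± 0.51) to 24 h (2.77 ± 0.96), again with no pair of neighbours passing. VCAN's group means spanned 10.88 to 11.40 and CD44's 4.98 to 5.44.

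The 5 VCAN probe sets did not all give the same picture. They moved together over the 22 arrays, with r of 0.87, 0.86, 0.90 and 0.76 between the brightest and the others. The 4 brighter sets had an F test adjusted p between 0.361 and 0.837 in limma. The dimmest set had 0.0349. On it, the 0 h follicles had a lowest of 7.38, a median of 7.73 and a highest of 8.05. The ruptured follicles read 9.03, 9.06, 8.80 and 9.24, all above that range. The 12 h follicles read 8.14, 9.17, 7.85 and 8.89, the 24 h ones 7.49, 8.64, 8.23 and 8.25, and the unruptured ones 7.64, 9.17, 8.48 and 8.04. Ruptured follicles were higher than 0 h on this set by 1.27 ± 0.29 (limma adjusted p = 0.00518), and this call held without any single array. The brightest set gave 0.30 ± 0.20 for the same comparison, with an interval from -0.13 to 0.72 beside 0.66 to 1.88 for the dimmest set, and the difference between the sets was not tested. Which stretch or form of the VCAN transcript each set reads is not used here.

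At 24 h replicate 1 was the lowest follicle on all 5 VCAN sets, and among unruptured follicles replicate 1 was the lowest and replicate 2 the highest on all 5. Among ruptured follicles replicate 8 was the lowest on sets 1, 2 and 4 and the highest on set 5. Replicate 1 at 24 h was also the lowest of its group for HAS2, PTX3 and CD44 and on the second TNFAIP6 set. It was not the lowest for HAS1 or on the brightest TNFAIP6 set. At 12 h replicate 3 was the lowest follicle for PTX3, VCAN and CD44 and on the brightest HAS2 set, though not on the second HAS2 set. That array also had the highest mean difference between the 3' and 5' probe sets of actin, EF1A and GAPDH, 0.48 against 0.22 to 0.38 on the others.

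**Figure D3:**
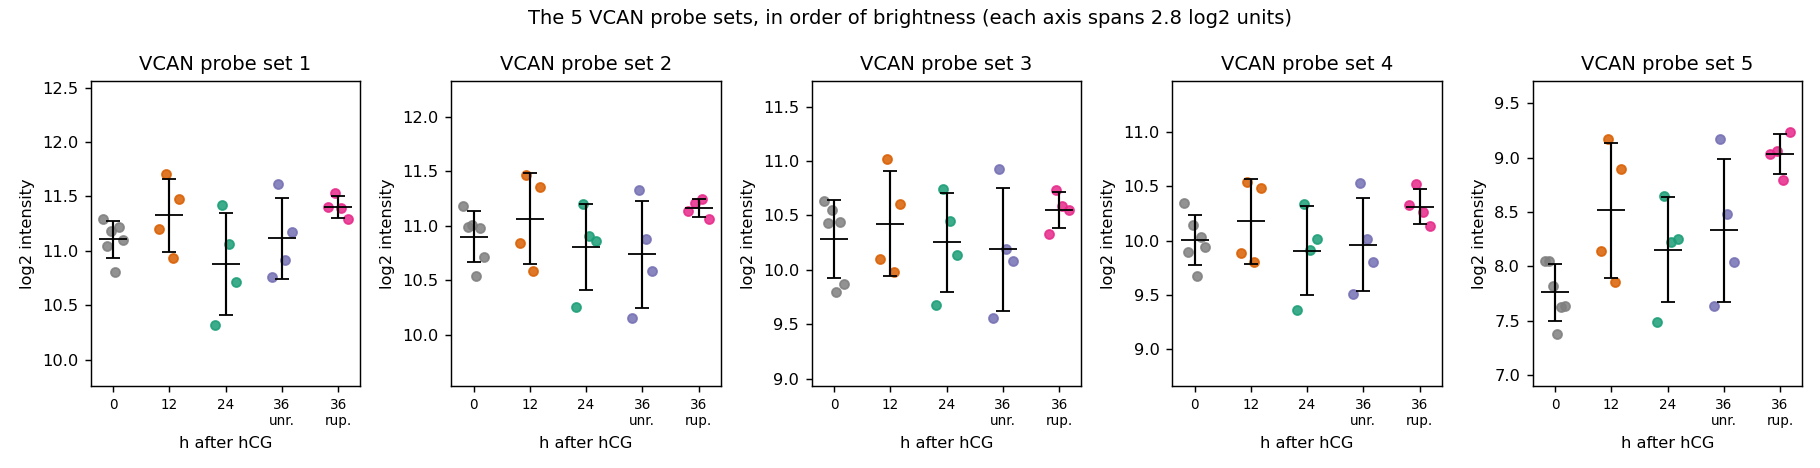
Log2 intensity of the 5 VCAN probe sets (y axes, each spanning 2.8 units and not starting at 0) in follicles at 0, 12, 24 and 36 h after hCG (x axes), unruptured and ruptured at 36 h. Points are follicles and bars give the mean and SD. On the dimmest set all ruptured follicles, at 8.80 to 9.24, lie above all 0 h follicles. On the brightest set they do so too, but only just.

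Whether members changed by different amounts was tested on the difference between 2 genes within each array. For HAS2 minus HAS1, PTX3 minus TNFAIP6 and VCAN minus CD44 over the 4 successive comparisons, none of the 12 exact permutation tests (2-sided) passed after Benjamini-Hochberg adjustment. The smallest was PTX3 minus TNFAIP6 from 24 h to unruptured follicles, a difference of -1.27 with an exact permutation p of 0.0286, the smallest that 4 against 4 follicles can give, and an adjusted p of 0.343. A lone difference among 4 against 4 follicles therefore could not have passed. The 12 tests do not show that the members changed by like amounts. At 12 h against 0 h PTX3 changed by 1.21 more than TNFAIP6 (exact p = 0.0667, adjusted p = 0.400).

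Over the 22 arrays, PTX3 and TNFAIP6 were the most alike of the member pairs, with r = 0.90 over all arrays and 0.52 once group means were removed. HAS2 and TNFAIP6 had 0.82 and 0.44. HAS1 and HAS2 had 0.67 and 0.01, so that their likeness over all arrays lay between groups. Both had means below the array medians at 0 h, at 24 h and in unruptured follicles. Likeness within groups was not tested. HAS1 and PTX3 had 0.59 over all arrays and -0.38 within groups. All these correlations describe the same 22 arrays, which share their groups.

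Among about 9010 other named genes, those most like each member over the 22 arrays were picked by Pearson r. PTX3's were OSMR, the oncostatin M receptor subunit (0.97), TM4SF1 (0.93) and RPL19, a ribosomal protein gene (0.93). OSMR had means of 9.60, 11.97, 10.80, 10.38 and 12.48 from 0 h to ruptured follicles. For TNFAIP6 they were CEBPB, a transcription factor (0.95), OSMR (0.94) and IL6ST, the shared receptor subunit gp130 (0.92). For HAS1 they were GCH1, which starts tetrahydrobiopterin synthesis (0.93), CSRNP1 (0.92) and the AP-1 factor JUNB (0.92). HAS2's were CEMIP2, a hyaluronidase of the cell surface (0.87), VPS9D1 (0.86) and AGFG1 (0.86). VCAN's were POLR3E (0.80), TAF11 (0.75) and NAF1 (0.74), and CD44's were IPO11 (0.83), BAX (0.79) and ABHD17C (0.77).

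Around the members, 113 further genes of hyaluronan metabolism, the cumulus matrix and its induction were listed in 8 groups, and 90 of them were measured. Each was given by its brightest probe set, so the shares over all probe sets, which include sets without a symbol, are not like for like. At 12 h against 0 h, 18 of the 90 rose (20%, beside 4.28% of all probe sets) and 5 fell (5.56%, beside 5.05%), with a median change of 0.24. From 12 h to 24 h 7 rose and 7 fell, 7.78% each way beside 3.67% and 3.2%. From 24 h to unruptured follicles none was called, where 0% and 0.00379% of all probe sets were. In ruptured against unruptured follicles, called at rupture below, 18 were higher (20%, beside 4.83%) and 6 lower (6.67%, beside 4.99%). The shares that fell at 12 h and at rupture lay near the background, and a single called gene in one of the lists below is likewise not read as a result about that list. Of the 23 genes called at 12 h, 13 kept the call without any single array. Of the 14 called at 24 h against 12 h 4 did, and of the 24 called at rupture 14 did. Leaving out 1 array gave 2 to 5 genes higher and 2 to 9 lower at 24 h against 12 h, and 2 to 6 lower at 12 h and 2 to 4 at rupture.

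Precursor synthesis supplies the sugars that hyaluronan is made of. Of 7 measured genes of 8, 3 rose at 12 h, 2 fell at 24 h, and 3 rose and 1 fell at rupture. GFPT2, which makes glucosamine-6-phosphate at the entry of the hexosamine pathway, rose by 4.26 ± 0.44 at 12 h and by 2.39 ± 0.48 at rupture. Between 12 h and 24 h it fell by 1.71, a call that ended on leaving out replicate 1, 2 or 4 at 12 h or replicate 1, 2 or 3 at 24 h (limma adjusted p of up to 0.131). UGP2, which makes UDP-glucose, rose by 0.87 ± 0.21 at 12 h and by 0.99 ± 0.23 at rupture. GNPNAT1, which acetylates glucosamine-6-phosphate, rose by 1.01 ± 0.17 at rupture. UGDH, which makes UDP-glucuronate, the other building block of the chain, was the gene that fell at rupture, by 0.65 (SE 0.13, adjusted p = 0.00350). HAS3, the remaining synthase, had group means of 5.52 to 5.74 and no call. The values of UGP2 and UGDH at rupture lie outside the naming rule and were chosen after they were seen.

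Of 12 measured genes of hyaluronan breakdown and binding, 2 rose at 12 h, 2 rose and 1 fell at 24 h, and 1 rose at rupture. CEMIP2 rose by 1.54 ± 0.23 at 12 h and was higher by 1.06 ± 0.26 in ruptured than in unruptured follicles. From 12 h to 24 h it fell by 1.09, a call that ended without replicate 4 at 12 h or replicate 1 at 24 h (limma adjusted p of up to 0.0533). CEMIP, another hyaluronan-degrading protein, rose by 1.83 ± 0.53 from 12 h to 24 h, and without any 1 of the 8 arrays except 12 h replicate 4 this was lost (up to 0.137). TLR4, a receptor for bacterial products that is also reported to sense hyaluronan fragments, rose by 0.70 ± 0.18 at 12 h, a call lost without 12 h replicate 2 or 3 (up to 0.0531).

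Of 17 measured heavy chain donors, link proteins and matrix partners, none was called at 12 h, 1 rose at 24 h and 1 fell at rupture. ACAN (aggrecan) rose by 0.92 ± 0.21 from 12 h to 24 h. AMBP, whose product bikunin is part of inter-alpha-inhibitor, fell by 1.03 at rupture, and only without ruptured replicate 7 did its call remain (limma adjusted p of up to 0.0892 without any other). Of 13 measured genes of chondroitin sulfate assembly, which decorates versican, 1 rose and 2 fell at 12 h, 1 rose at 24 h, and 2 rose and 1 fell at rupture. CHST11, a chondroitin sulfotransferase, rose by 1.14 ± 0.26 at 12 h and by 1.15 ± 0.29 at rupture (0.65 and 0.75 with 16 added), the second lost without unruptured replicate 1 or ruptured replicate 8 (up to 0.0623). CHSY3, a chondroitin synthase, fell by 1.32 at 12 h (lost without 12 h replicate 3, 0.0509) and rose by 1.27 ± 0.35 at rupture (lost without unruptured replicate 1 or 3 or ruptured replicate 5 or 6, up to 0.0812).

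The versican-cleaving proteases held opposite movers. Of 10 measured proteases and inhibitors, 3 rose and 2 fell at 12 h, 2 rose and 1 fell at 24 h, and 2 rose and 2 fell at rupture. ADAMTS4 rose by 3.70 ± 0.42 at 12 h, fell by 2.72 at 24 h and rose by 4.09 ± 0.46 at rupture. ADAMTS5 fell by 1.45 at 12 h, rose by 1.82 ± 0.21 at 24 h and fell by 1.55 at rupture. Both are proteases that cut versican and aggrecan, and all 6 of these calls held without any single array. TIMP1, a metalloproteinase inhibitor outside the naming rule and chosen after its value was seen, rose by 1.38 at 12 h (limma adjusted p = 2.46e-06).

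Of 9 measured CD44 partners, 2 rose at 12 h, 1 at 24 h and 3 at rupture. SPP1 (osteopontin), a CD44 ligand that macrophages also make, rose by 2.35 ± 0.58 at 12 h, a call lost without 12 h replicate 2 or 3 (limma adjusted p of up to 0.0621). MSN (moesin), which links CD44 to the actin skeleton, rose by 0.82 ± 0.11 at 12 h, and EZR (ezrin), which does the same, by 1.17 ± 0.22 at rupture. Of 7 measured long pentraxins and complement partners, 1 rose at 12 h and 2 at rupture. NPTX2, a relative of PTX3, rose by 4.58 ± 0.82 at 12 h and by 2.95 ± 0.90 at rupture, the second lost without unruptured replicate 1, 2 or 3 or ruptured replicate 5, 7 or 8 (up to 0.143). FGF2, a growth factor that PTX3 binds, rose by 1.93 ± 0.38 at rupture.

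Of 15 measured inducers of cumulus expansion, 6 rose and 1 fell at 12 h, 3 fell at 24 h, and 5 rose and 1 fell at rupture. AREG, an EGF-like signal to cumulus cells, rose by 7.44 ± 0.87 at 12 h from a mean of 2.69 (5.46 with 16 added) and by 4.20 ± 0.95 at rupture. CEBPB rose by 1.93 ± 0.20 at 12 h and fell by 1.24 at 24 h. PGR, the progesterone receptor, fell by 1.70 from 12 h to 24 h, a call that ended without replicate 1 at 12 h or at 24 h (limma adjusted p of up to 0.0575). RUNX1, a transcription factor of the ovulatory response, rose by 1.78 ± 0.25 at rupture.

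The comparisons of 12 h with 0 h and of ruptured with unruptured follicles share no arrays. HAS2, PTX3 and TNFAIP6 were called higher in both, which is all 3 of the members that rose at 12 h and 75.0% of those that rose at rupture. Of the 90 pathway genes 11 were called higher in both, 61.1% of the 18 of either list. Of all probe sets tested 1020 were called higher in both, 45.2% of those higher at 12 h and 40.0% of those higher at rupture.

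**Figure D4:**
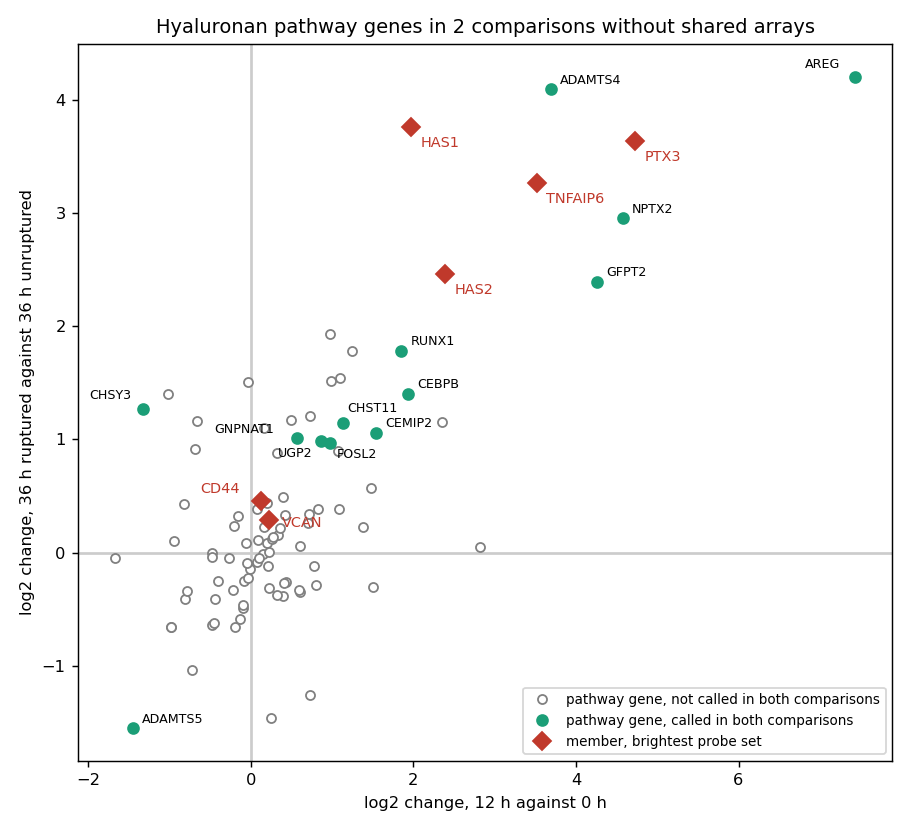
Log2 change at 12 h against 0 h (x axis) and in ruptured against unruptured follicles at 36 h (y axis) for the 6 members (diamonds) and the 90 measured pathway genes (circles, filled where called in both comparisons). PTX3 lies at 4.73 and 3.63, VCAN and CD44 lie near the centre, ADAMTS5 is called lower in both, and CHSY3 is called in opposite directions. Both changes came from a single fit of all arrays with a shared spread, so calls in both are not independent.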

How the data were processed

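The deposited values were intensities, 1 for each of 52865 probe sets and 22 arrays, made by the authors with RMA per the submitters' processing notes, with no version named there. They ran on a linear scale with a lowest value of 0.0361, so log2 was taken here. The sources used here name neither batches nor detection calls, so neither a batch nor presence above background was tested. The number of arrays limits the precision.

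The 99 control probe sets were left out. Group means of all arrays were fitted with limma 3.58.1 in R 4.3.3 (lmFit, eBayes), so that the groups share a spread, with Benjamini-Hochberg adjustment over 52766 probe sets. The fit was run on simulated data with independent noise, where changes were added only to probe sets brighter than the median one. HAS1 and HAS2 are dimmer than that, so the run does not show how well changes like theirs are found. Exact permutation tests used scipy 1.17.1. Symbols were those of the platform annotation (1 symbol for 24956 tested probe sets, several for 361, none for 27449), and the gene IDs of all 6 members matched the RefSeq gene table.

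The members, pairs and lists were chosen with earlier results of these data known. The naming rule took all members, up to 2 called genes per list and successive comparison with the largest absolute change, and the 3 genes most like each member by r (named genes with a mean at or above the median probe set). Markers of 10 cell types (64 of 88 genes measured) were counted likewise. Of these, the T and NK cell and red blood cell lists had no called gene in the 4 successive comparisons. The endothelium list had 1 gene lower at 24 h and 1 at rupture, the smooth muscle list 1 higher at 12 h, the fibroblast list 1 lower at 12 h and 1 higher at 24 h, and the theca list 1 higher and 3 lower at 12 h, 2 higher and 1 lower at 24 h and 1 lower at rupture. Groups and replicate numbers came from the titles. Same-numbered arrays did not deviate together (26 pairs, r from -0.18 to 0.17, 1 pair over 0.1), so the numbers were not taken to pair follicles. Alternatives were a fit of only 2 groups, 16 added before the logarithm, quantile normalization, a filter on dim probe sets, array weights, the 3' minus 5' difference as a covariate, the mean of a gene's probe sets, the replicate block, and each array left out.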

Additional observations from a re-analysis of the deposited data

Results flagged for a closer look

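Of 60 sets of 4 to 6 follicles (12 probe sets in 5 groups), 3 held a follicle far from the others by Dixon's criterion, which chance gives in about 1 of 20 sets. HAS2 read 5.02 in ruptured replicate 8, against 6.51 in the nearest ruptured follicle, while its second probe set was not marked. PTX3 read 9.62 in 12 h replicate 3, against 10.47 in the nearest follicle, and that array had the highest 3' minus 5' difference. CD44 read 4.68 in 24 h replicate 1, against 5.07. The causes were not tested.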

How the results depend on the processing

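No called change of the 6 genes reversed under any alternative run. The counts of called genes moved as follows. With the filter on dim probe sets, which drops HAS1 and HAS2, 2 of 4 genes were called by the F test, 2 of 4 at rupture, 2 of 4 in ruptured follicles against 0 h and 2 of 4 against 24 h. In a fit of only 2 groups, 0 of 2 were called at 24 h against 12 h, 1 of 2 in unruptured follicles against 12 h and 1 of 4 in ruptured follicles against 24 h, where fewer arrays set the spread. With the 3' minus 5' difference as a covariate, 0 of 1 was called in unruptured follicles against 0 h. The covariate also ended the limma calls of HAS1 at 24 h against 12 h (adjusted p = 0.116) and of HAS2 at rupture (0.0833), and it brought TNFAIP6 past the threshold at 24 h against 12 h (0.0394). With a replicate block, 0 of 1 was called in unruptured follicles against 0 h, 2 of 4 in ruptured follicles against 0 h (HAS2 at an adjusted p of 0.128 and TNFAIP6 at 0.0903 in limma were lost) and 1 of 2 in unruptured follicles against 12 h (TNFAIP6 at 0.0859 was lost). HAS2 at 12 h had 0.110 with the block. Ruptured follicles share no number with the 12 h, 24 h and unruptured groups, so no block was fitted there, nor for the F test. Leaving out 1 array gave 0 to 2 called genes at 24 h against 12 h, 0 to 1 in unruptured follicles against 0 h, 1 to 2 in unruptured against 12 h and 0 to 1 in ruptured against 12 h. It gave 2 to 3 at 12 h against 0 h and 3 to 4 at rupture. The other counts kept their value within 1.5 times. Quantile normalization and array weights changed no call of a member. HAS1 and HAS2 group means lay below the array median of about 4.73 in the 0 h, 24 h and unruptured groups, so the size of their changes is uncertain: with 16 added, HAS1 changed by -1.25 in place of -2.53 at 24 h.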
